A study of Mus musculus with 14 samples.

Results

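Skeletal muscle precursor cells from aged mice were compared with those from young mice. Of the 14 arrays in the series, 10 enter the comparison, all those labelled 24 months (aged, 5 arrays) and all those labelled 2 months (young, 5 arrays). The 4 arrays labelled 12 months (middle aged) entered the estimate of the spread, the filter on dim probe sets and the definition of the array sets described below, but no mean given here. Every group was of C57BL/6 background and was sorted as CD45-Ter119-Sca-1-CD29+Cxcr4+ cells from digested muscle. No agent or genetic change is named in the labels, although the series title names GDF11. The labels do not say whether arrays of a group come from separate animals, so p-values measure only the spread between these arrays. The sort keeps cells without CD45, Ter119 and Sca-1, and so is meant to leave out blood, red cell and most fibro-adipogenic cells. In bulk RNA from such a sort, fewer cells of a type and less RNA per cell cannot be told apart.

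Muscle precursors, or satellite cells, lie between the muscle fibre and its basement membrane and repair the fibre after injury. They rest, divide or differentiate in answer to signals in that niche. These signals include Wnt, BMP, FGF and cytokine ligands, the secreted antagonists that bind those ligands, and the matrix that stores them. The receptors a cell carries set which signals it reads, and transcription factors such as Pax7 and Myod1 set its identity.

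Each gene is given as the log2 of its array intensity, taken from 1 probe set per gene, so differences are log2 changes and levels of different genes cannot be ranked against each other. A gene passed the test at an adjusted p under 0.05 in limma, with Benjamini-Hochberg adjustment over all 13579 genes tested. The identity genes Pax7, Myf5 and Myod1 did not pass, and the wider list of satellite cell genes is given below. Pax7 averaged 9.52 ± 0.45 in young and 9.02 ± 0.48 in aged arrays (SD, n = 5; adjusted p = 0.360, limma), and Myod1 averaged 11.21 ± 0.11 and 10.96 ± 0.30 (adjusted p = 0.477, limma). Myf5 differed by -0.57, and the sort markers Itgb1 (CD29) and Cxcr4 by -0.12 and -0.35 (limma adjusted p from 0.507 to 0.882). Ptprc, which encodes CD45, did not clear the filter on dim probe sets. Gdf11, the ligand named in the series title, averaged 4.78 ± 0.16 in young and 4.56 ± 0.28 in aged arrays (adjusted p = 0.562, limma).

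The sorted cells held transcripts of other cell types at both ages. The summed level of 14 tenocyte markers ran from 12.02 to 13.63 in young and from 15.04 to 16.18 in aged arrays, and 12 of the 14 rose. Among fibro-adipogenic and fibroblast markers, 5 of 16 rose (3 without young array 2), and the summed level ran from 14.48 to 15.02 in young and from 14.63 to 15.75 in aged arrays. Mature myofibre transcripts rose in 20 of 58 genes and fell in 1, with summed levels of 13.30 to 13.61 and 13.59 to 14.68, and 3 rose within array set 1. Interferon and MHC class I genes rose in 30 of 91, in 19 without young array 3 and in 18 with the 3′ minus 5′ signal in the fit. Of 11 measured macrophage markers, 2 rose (Cd14 and Lyz1), while Ptprc, Itgam, Aif1, Mrc1, Ctss, C1qb and C1qc did not clear the filter. Of 14 endothelial markers, 1 fell (Tek), and Pecam1, Emcn and Tie1 did not clear the filter. No lymphoid or neutrophil marker of 11 passed in limma, and none had an unadjusted p under 0.05 (0 of 11). Satellite cell genes fell in 4 of 31 (Calcr, Chrdl2, Dag1 and Fgfr4), with a median change of -0.52 beside -0.05 for all genes. Of the 31, 5 had a positive change and 14 an unadjusted p under 0.05 in limma. The falls numbered 2 when young array 3 or 4, or aged array 2 was dropped. They numbered 2 with the 3′ minus 5′ signal in the fit and 8 within set 1. Summed levels of the list ran from 15.20 to 15.51 in young and from 14.92 to 15.24 in aged arrays. The arrays were also divided into 2 sets by the sign of the leading component of their age-centred values. Set 1 holds young arrays 1, 3 and 4 and aged arrays 1 and 2, and set 2 holds the other 5. The hybridization controls of the arrays differed between the sets within each age. They read 10.18 to 10.57 in young arrays of set 1, and 9.60 and 9.78 in those of set 2 (log2). In aged arrays they read 10.79 and 10.87 in set 1, and 9.47 to 10.34 in set 2. The 3′ minus 5′ signal of Gapdh and Actb, a measure of RNA and labelling quality, was 4.30 ± 0.54 in young and 3.54 ± 0.51 in aged arrays (log2, SD, n = 5). Because this signal differed between the ages, a fit with it shares part of the age contrast. For a call lost in that fit, RNA quality and age cannot be told apart. The part of these measures in the results was not tested, beyond the values given with an array set or the 3′ minus 5′ signal in the fit. Lyz1 lost its call without young 1, 2, 3 or 4 or aged 1 or 4 (limma adjusted p up to 0.0913). Lyz1 did not pass with the 3′ minus 5′ covariate (limma adjusted p = 0.101).

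Across the 13579 genes, 584 passed the test (4.30%), of which 414 rose (3.05%) and 170 fell (1.25%), and the median change was -0.05. Of 490 genes for secreted proteins, 88 rose and 8 fell (19.6%), with a median change of 0.13. Receptors changed in both directions, with 17 of 431 higher and 15 lower (7.42%) and a median of -0.04. Of 817 transcription factors, 15 were higher and 17 lower (3.92%), with a median of -0.08. Genes of other cell functions gave 51 rises and 24 falls among 1983 (3.78%). Without the tenocyte, interferon, myofibre and already described genes, secreted factors gave 76 rises and 5 falls among 469 (17.3%). Beside them stood 331 rises and 152 falls among 13372 genes (3.61%). Fibro-adipogenic markers such as Lox, Fbln1 and Mfap5 stay among the 469, and the part of other cell types in this count was not tested. Single arrays moved some counts by more than 1.5 times. All genes called numbered 388 without young array 3, receptors 21 without young array 3, and transcription factors 19, 20 and 19 without young array 1, 3 or 4. Falls moved further than rises. They numbered 87, 87 and 93 over all genes without young array 1, 3 or 4, and 8, 7 and 9 over receptors. For secreted factors the 8 falls became 2 without young array 3, 3 without aged array 5, and 4 or 5 when young array 1 or 4, or aged array 2 or 4 was dropped. With the array set as a term, 576 genes rose and 400 fell. The split was then 101 and 14 for secreted factors, 24 and 25 for receptors, and 18 and 43 for transcription factors. The sets were drawn from these same values, so the term takes up spread by construction and the gain in calls is no finding.

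**Figure D1:**
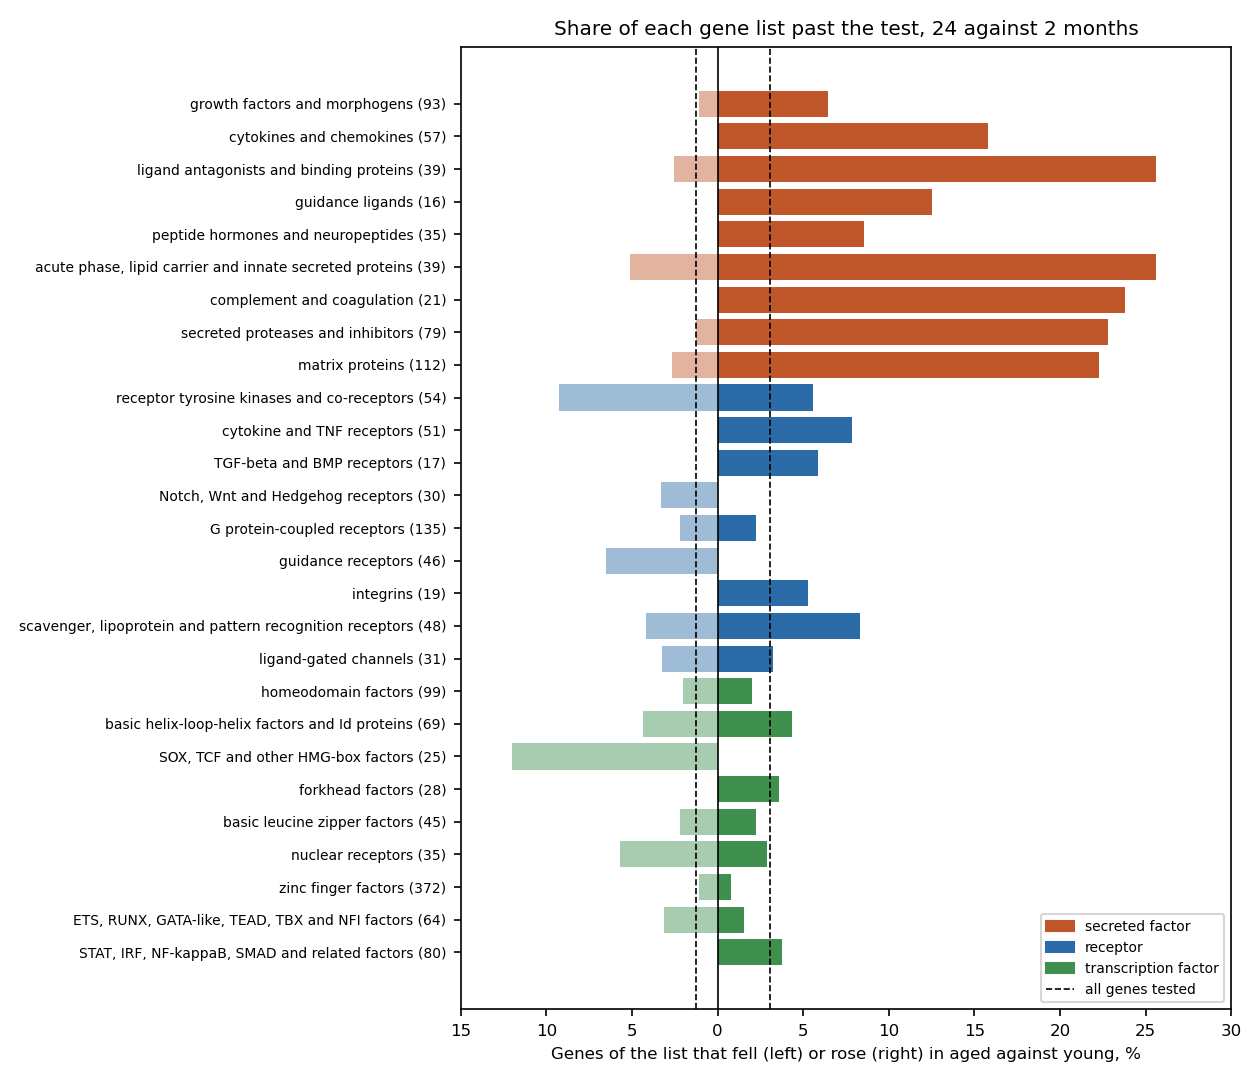
Percent of the measured genes of each secreted factor, receptor and transcription factor list that fell (pale bars, left) or rose (solid bars, right) in aged against young arrays, with the number of measured genes in brackets. The dashed lines mark all genes tested (1.25% fell, 3.05% rose), and the secreted factor lists at the top reach 6.45% to 25.6% on the rising side.

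The genes described one by one below passed the test with no overlap between the 5 aged and the 5 young values, so that their separation is a condition of choice and not a finding. Across all genes tested, 3.48% passed in this way. Groups that did not overlap, whatever the test, were higher in aged arrays for 3.48% of all genes and lower for 1.97%. They lie outside the tenocyte, interferon and myofibre lists. Genes added in a list's count without that condition were named after their values were seen. Where a call ended with 1 array left out, with the 3′ minus 5′ signal as a covariate, or with the median of a gene's probe sets in place of the brightest, this is given in the same paragraph.

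Among growth factors and morphogens, 6 of 93 rose (Angptl7, Bmp5, Ccn4, Fgf18, Igf2 and Pdgfd) and 1 fell (Ereg). Angptl7, a secreted angiopoietin-like glycoprotein, read 4.67, 6.44, 4.32, 6.29 and 6.40 in young arrays 1 to 5 and 7.80, 9.59, 9.81, 8.51 and 9.36 in aged arrays 1 to 5. Young arrays 1 and 3 were the lowest, and the lowest aged array stood more than 1 log2 unit above the highest young one. The change was 3.39 (10.5-fold, SE 0.50, n = 5; adjusted p = 0.00106, limma). Bmp5, a bone morphogenetic protein, read 5.09, 6.64, 4.04, 4.69 and 5.66 in young and 7.38, 8.09, 7.85, 6.75 and 6.82 in aged arrays. Young array 2 came close to the lowest aged array. Its change of 2.16 (adjusted p = 0.00974, limma) was 3.13 within array set 1 and 0.99 within set 2. Ccn4, a matricellular protein, rose by 1.01, Pdgfd, a ligand of the PDGF receptor, by 1.16, Fgf18 by 1.27 and the insulin-like growth factor Igf2 by 0.88. Ereg, a ligand of the EGF receptor, fell by 1.32 on the log2 scale. Without young array 2 or aged array 2, 3 of these genes rose. Fgf18 lost its call without young 2 or 4 or aged 2 or 3, Igf2 without young 1, 2, 3 or 5 or aged 1, 2 or 4, Pdgfd without any single array other than aged 1 and aged 4, and Ereg without young 3 or aged 2, 3 or 5 (limma adjusted p up to 0.104). Bmp5, Fgf18, Igf2, Pdgfd and Ereg did not pass with the 3′ minus 5′ covariate (limma adjusted p from 0.0593 to 0.138). Bmp5 at 0.37 did not pass with the median over probe sets (limma adjusted p = 0.172).

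Antagonists and binding proteins of such ligands rose in 10 of 39 genes and fell in 1 (Chrdl2), with a median of 0.15. Igfbp6, which binds insulin-like growth factors with a preference for Igf2, read 7.06, 7.23, 6.23, 7.35 and 7.44 in young and 9.36, 10.75, 10.55, 9.57 and 9.49 in aged arrays. All aged values lay above 9, and all young values lay below 8. It rose 7.40-fold (log2 change 2.89, SE 0.33; adjusted p = 0.000232, limma). Chrdl1, a secreted BMP antagonist, read 3.93, 5.54, 3.74, 4.64 and 6.34 in young arrays, 1 of them under the 40th percentile used as the filter, and 7.98, 8.70, 7.99, 7.32 and 7.74 in aged arrays. The young arrays spread widely and the aged arrays did not. The change was 3.11 (SE 0.49; adjusted p = 0.00167, limma), with 4.24 within array set 1 and 1.74 within set 2. Wnt antagonists rose as well, Wif1 by 2.77, Sfrp4 by 1.38, Sfrp2 by 1.07 and the divergent family member Dkk3 by 1.71. Follistatin (Fst), which binds activins, myostatin and Gdf11, read 4.15, 6.44, 4.64, 4.12 and 6.05 in young and 6.66, 6.67, 7.78, 7.18 and 7.82 in aged arrays and rose by 2.14 (adjusted p = 0.0104, limma). Its young arrays 2 and 5 nearly reached the lowest aged array. Igfbp7, Sparcl1 and Htra1 rose by 1.56, 1.23 and 1.06. With the 3′ minus 5′ signal as a covariate, 5 of the 39 rose, and the median was 0.47. Chrdl2 lost its call without young 1, 3 or 4 or aged 2, 3 or 5, Sfrp4 without young 1, 2 or 3 or aged 3, and Htra1 without young 3 (limma adjusted p up to 0.0807). Chrdl2, Wif1, Sfrp4, Sfrp2, Fst and Sparcl1 did not pass with the 3′ minus 5′ covariate (limma adjusted p from 0.0559 to 0.242). Igfbp7 at -0.01 did not pass with the median over probe sets (limma adjusted p = 0.985).

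Cytokines and chemokines rose in 9 of 57 genes, with a median of 0.05. Outside the genes already described for these arrays and the interferon list, Cx3cl1, Il18, Cxcl14 and Cxcl16 rose. Cx3cl1, the membrane-anchored chemokine fractalkine, read 5.54, 5.40, 6.19, 6.17 and 5.86 in young and 6.92, 6.96, 6.74, 7.73 and 7.15 in aged arrays. Aged array 4 was the highest and aged array 3 the lowest of its group. The change was 1.27 (SE 0.20; adjusted p = 0.00164, limma). Il18, a cytokine that inflammasomes activate, rose by 0.70 (adjusted p = 0.0305, limma). Its call ended when young array 1, 3 or 4, or aged array 3 or 5 was dropped (limma adjusted p from 0.0627 to 0.0840). Cxcl14 rose by 1.27 and Cxcl16, a second membrane-anchored chemokine, by 0.65. Cxcl14 lost its call without young 3 or 4 or aged 2, and Cxcl16 without any single array other than aged 5 (limma adjusted p up to 0.0796). Il18 did not pass with the 3′ minus 5′ covariate (limma adjusted p = 0.178). Cxcl14 at 0.67 did not pass with the median over probe sets (limma adjusted p = 0.224). Cx3cl1 at 0.64 passed with that median, at a smaller change.

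Guidance ligands, which steer axons and vessels, rose in 2 of 16 genes, with a median of 0.73. Ntn4, a netrin of basement membranes, read 9.52, 9.17, 9.30, 9.51 and 9.39 in young and 10.36, 10.47, 10.31, 10.94 and 10.49 in aged arrays. Both groups were tight, and the gap between them was wider than either range. The change was 1.13 (SE 0.14; adjusted p = 0.000425, limma), while a dimmer Ntn4 probe set differed by -0.09. Sema3c, a secreted semaphorin, averaged 4.42 ± 0.32 in young and 6.47 ± 0.63 in aged arrays and rose by 2.05 (adjusted p = 0.0157, limma). Without aged array 4, 4 guidance ligands rose. Among 35 peptide hormones, Adm (adrenomedullin, a vasodilator peptide) rose by 0.94 and Enho (adropin) by 0.52, besides Tac1. The call of Adm ended when young array 1, 2, 3 or 5, or aged array 1, 2, 3, 4 or 5 was dropped (limma adjusted p from 0.0530 to 0.115). The call of Enho ended when young array 1, 3, 4 or 5, or aged array 3, 4 or 5 was dropped (limma adjusted p from 0.0559 to 0.0918), and the median over its probe sets differed by -0.22. Sema3c, Adm and Enho did not pass with the 3′ minus 5′ covariate (limma adjusted p from 0.0735 to 0.157). Ntn4 at 0.52, Sema3c at 1.15 and Enho at -0.22 did not pass with the median over probe sets (limma adjusted p from 0.0730 to 0.521).

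**Figure D2:**
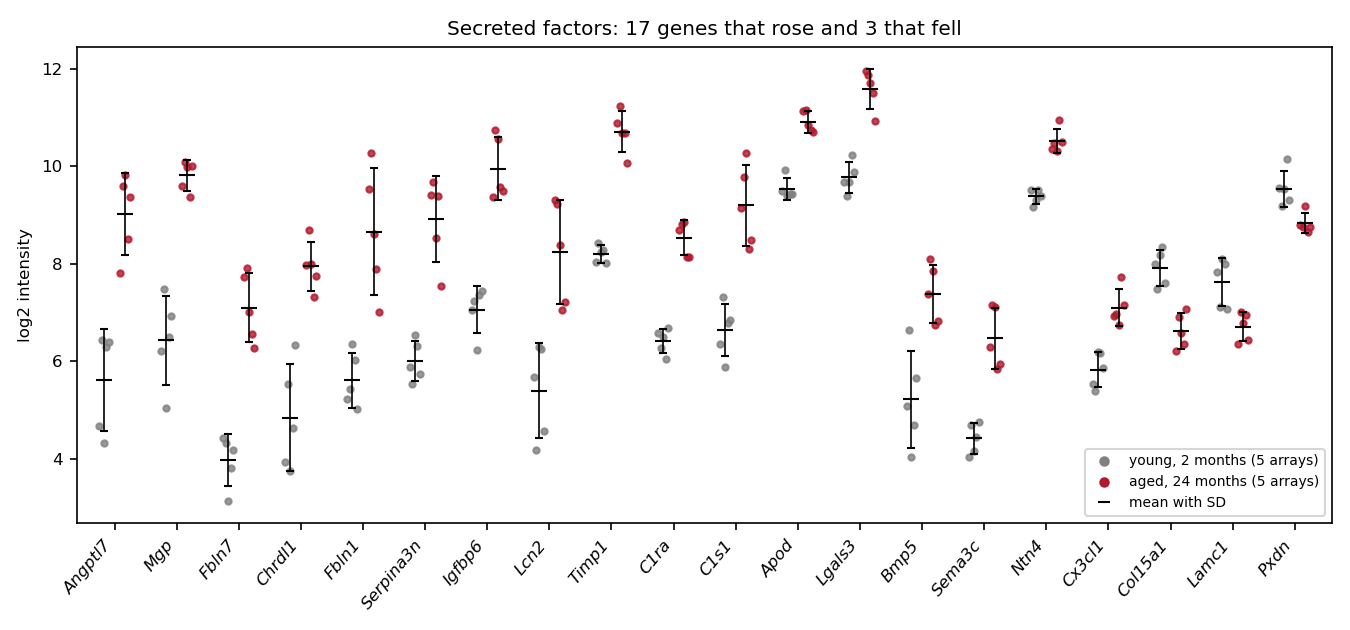
Log2 intensity on the 5 young (grey) and 5 aged (red) arrays for 17 secreted factors that rose and, at the right, 3 that fell, with the mean and SD of each group. The aged points of Fbln1 spread from 7.0 to 10.26, whereas those of Apod lie between 10.70 and 11.16.

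Acute phase, lipid carrier and innate secreted proteins rose in 10 of 39 genes and fell in 2, with a median of 0.31. Lcn2, a lipocalin that withholds iron from bacteria, read 5.68, 4.19, 6.29, 6.25 and 4.58 in young and 9.30, 9.23, 8.39, 7.06 and 7.21 in aged arrays. Young arrays 3 and 4 lay within 1 log2 unit of aged arrays 4 and 5. The change was 2.84 (SE 0.55; adjusted p = 0.00817, limma). Apod, an apolipoprotein of the lipocalin family, read 9.49, 9.92, 9.38, 9.43 and 9.42 in young and 11.14, 11.16, 10.84, 10.74 and 10.70 in aged arrays. Young array 2 stood apart from the other young arrays and still lay below all aged arrays. Apod rose by 1.39 (SE 0.16; adjusted p = 0.000209, limma). Lgals3, the galectin that binds galactose-bearing glycoproteins, averaged 9.77 ± 0.31 in young and 11.59 ± 0.41 in aged arrays and rose 3.54-fold (adjusted p = 0.000379, limma). Mfge8, which bridges apoptotic cells to phagocytes, rose by 1.73, Lbp, which carries lipopolysaccharide to Cd14, by 1.63, the phospholipid transfer protein Pltp by 1.75, and chemerin (Rarres2) by 0.93. Pla2g5 and Ccdc80 rose by 1.39 and 1.45. Saa1, an acute phase apolipoprotein, read 3.78, 3.87, 5.01, 3.76 and 3.24 in young and 8.32, 8.42, 7.83, 3.84 and 6.33 in aged arrays. Aged array 4 lay among the young arrays, 3 of which were under the filter percentile, so that its change of 3.02 rests on the other 4 aged arrays. Ceruloplasmin (Cp) and C1qtnf3 fell by 0.79 and 1.49 on the log2 scale. Saa1 lost its call without young 1, 4 or 5 or aged 1, 2 or 3, Cp without young 1, 3 or 4 or aged 4 or 5, and C1qtnf3 without young 2, 3 or 5 or aged 2 or 4 (limma adjusted p up to 0.0851). Pltp, Rarres2 and Cp did not pass with the 3′ minus 5′ covariate (limma adjusted p from 0.0613 to 0.230). Cp at -0.57 did not pass with the median over probe sets (limma adjusted p = 0.0566).

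Complement and coagulation genes rose in 5 of 21, with a median of 0.30 and no fall. C1ra and C1s1 encode the proteases of the first complement component. C1ra read 6.57, 6.28, 6.49, 6.05 and 6.69 in young and 8.69, 8.82, 8.85, 8.14 and 8.13 in aged arrays. The young values stayed below 7 and the aged values above 8. Its change was 2.11 (4.32-fold, SE 0.21; adjusted p = 6.68e-05, limma). C1s1 averaged 6.64 ± 0.54 in young and 9.20 ± 0.83 in aged arrays, a change of 2.56 (adjusted p = 0.00160, limma). C2, which C1s cleaves, rose by 1.56, the urokinase plasminogen activator Plau by 1.5 and thrombomodulin (Thbd) by 1.41. Without young array 1, 3 of the 21 rose, and with the 3′ minus 5′ covariate 2 rose. Plau lost its call without young 1, and Thbd without young 1, 3 or 4 or aged 3 or 5 (limma adjusted p up to 0.113). C2, Plau and Thbd did not pass with the 3′ minus 5′ covariate (limma adjusted p from 0.0717 to 0.228). Plau at 0.89 passed with the median over probe sets, at a smaller change.

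Secreted proteases and their inhibitors rose in 18 of 79 genes and fell in 1 (Adamts20), with a median of 0.22. Timp1, an inhibitor of matrix metalloproteinases, read 8.03, 8.43, 8.25, 8.29 and 8.01 in young and 10.89, 11.23, 10.67, 10.68 and 10.07 in aged arrays. No young array exceeded 9 and no aged array fell below 10. Timp1 rose 5.67-fold (log2 change 2.50, SE 0.20; adjusted p = 1.25e-05, limma). Timp3 and Timp2 rose by 1.22 and 0.96. Serpina3n, an inhibitor of serine proteases, read 5.88, 5.54, 6.54, 6.31 and 5.74 in young and 9.41, 9.68, 8.53, 9.39 and 7.54 in aged arrays. Aged array 5 was the lowest of its group and still 1 log2 unit above the highest young array. The change was 2.91 (SE 0.36; adjusted p = 0.000379, limma). Serpinf1, an anti-angiogenic serpin, rose by 2.59, and the cystatins Cst3 and Cst6, inhibitors of cathepsins, by 1.25 and 0.68. Proteases rose too, cathepsin K (Ctsk) by 2.30, cathepsin H (Ctsh) by 1.72, Mmp23 by 1.83, the aggrecanase Adamts4 by 1.28 and carboxypeptidase E (Cpe) by 1.12. Genes of collagen modification, here of crosslinking, procollagen processing and prolyl hydroxylation, rose in 5 of 30. Lox read 8.27, 9.18, 7.98, 8.31 and 8.85 in young and 10.25, 11.28, 11.18, 10.35 and 10.38 in aged arrays. Young arrays 2 and 5 were the highest of their group. It rose by 2.17 (adjusted p = 0.000576, limma), Loxl4 by 2.02, Loxl3 by 1.58, the procollagen processing enhancer Pcolce by 1.68 and the prolyl hydroxylase P3h2 by 1.08. Timp2 lost its call without young 1 or 4 or aged 2 or 3, Cst6 without young 1, 3, 4 or 5 or aged 1 or 5, Cpe without young 1, 3 or 4 or aged 2, 4 or 5, and P3h2 without any single array other than aged 4 and aged 5 (limma adjusted p up to 0.110). Timp2, Cpe and P3h2 did not pass with the 3′ minus 5′ covariate (limma adjusted p from 0.0753 to 0.166). Timp2 at 0.81 and Cpe at 0.60 did not pass with the median over probe sets (limma adjusted p from 0.129 to 0.164). Loxl4 at 1.02 passed with that median, at a smaller change.

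Matrix proteins rose in 25 of 112 genes and fell in 3, with a median of 0.21. Mgp, an inhibitor of calcification, read 6.21, 7.48, 5.05, 6.49 and 6.93 in young and 9.60, 10.09, 9.99, 9.36 and 10.01 in aged arrays. The aged arrays agreed within 1 log2 unit, while the young arrays spread over more than 2. The change was 3.38 (10.4-fold, SE 0.43; adjusted p = 0.000425, limma). Fbln7, a fibulin, averaged 3.98 ± 0.53 in young arrays, 2 of them under the filter percentile, and 7.10 ± 0.71 in aged arrays, a change of 3.12. Fbln1 read 5.23, 5.43, 6.36, 6.02 and 5.03 in young and 9.54, 10.26, 8.60, 7.89 and 7.0 in aged arrays. Aged array 2 was the highest and aged array 5 the lowest, less than 1 log2 unit above young array 3. It changed by 3.05 (SE 0.55; adjusted p = 0.00530, limma). Microfibril and elastic fibre proteins Mfap4, Mfap5, Fbln2 and Fbln5 rose by 2.23, 1.85, 1.86 and 1.55. Small leucine-rich proteoglycans Prelp and Ogn rose by 2.47 and 1.57, the short-chain collagens Col8a1 and Col8a2 by 2.13 and 1.99, and the thrombospondins Thbs1 and Thbs2 by 2.03 and 1.03. The matrix genes that fell belong to basement membranes. Col15a1 read 7.99, 7.48, 8.18, 8.35 and 7.61 in young and 6.21, 6.90, 6.58, 6.35 and 7.07 in aged arrays. Young array 2 and aged array 5 were the closest. It fell by 1.30 on the log2 scale (SE 0.22; adjusted p = 0.00251, limma). Lamc1, the laminin gamma chain of most laminins, averaged 7.62 ± 0.49 in young and 6.71 ± 0.30 in aged arrays, and Pxdn, which crosslinks collagen IV, averaged 9.54 ± 0.37 and 8.83 ± 0.20. Their changes were -0.91 and -0.71 (adjusted p = 0.0300 and 0.0246, limma). The call of Lamc1 ended when young array 1, 3 or 4, or aged array 1 or 5 was dropped (limma adjusted p from 0.0679 to 0.0921). The call of Pxdn ended when young array 1 or 3, or aged array 1, 2, 4 or 5 was dropped (limma adjusted p from 0.0508 to 0.0585). Without young array 2, 5 matrix genes fell. When young array 1 or 3, or aged array 1 or 5 was dropped, 1 fell, as with the 3′ minus 5′ covariate. Beside these counts stands the rise of fibro-adipogenic and tenocyte markers given above. Lox, Dcn, Fbln1 and Mfap5 are themselves on the fibro-adipogenic list, and Col11a1, Col12a1 and Tnc on the tenocyte list. Mfap5 lost its call without young 2 or 4, Fbln2 without young 4, and Thbs2 without young 1, 3 or 4 or aged 2 or 3 (limma adjusted p up to 0.0788). Mfap5, Col8a1, Col8a2, Thbs2, Lamc1 and Pxdn did not pass with the 3′ minus 5′ covariate (limma adjusted p from 0.0822 to 0.190). Thbs2 at 0.73 and Lamc1 at -0.70 did not pass with the median over probe sets (limma adjusted p from 0.128 to 0.292). Fbln5 at 0.79 passed with that median, at a smaller change.

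Receptor genes differed in both directions, and the rises included cytokine, phagocytic and innate receptors. Cytokine and TNF receptors rose in 4 of 51 genes with no fall. Lepr, the leptin receptor, read 4.45, 5.74, 3.70, 4.12 and 5.16 in young and 7.49, 7.67, 6.77, 6.76 and 8.01 in aged arrays. Young array 2 was the highest of its group, and young array 3 lay under the filter percentile. The change was 2.71 (SE 0.51; adjusted p = 0.00648, limma), with 3.49 within array set 1 and 1.73 within set 2. Osmr, the receptor chain for oncostatin M, read 10.59, 11.54, 10.80, 11.08 and 11.28 in young and 11.71, 11.99, 12.03, 12.15 and 12.13 in aged arrays. Young array 2 lay close to aged array 1. It rose by 0.94 (SE 0.17; adjusted p = 0.00477, limma). Tnfrsf1b, a receptor for tumour necrosis factor, averaged 6.42 ± 0.21 in young and 7.63 ± 0.59 in aged arrays and rose by 1.22 (adjusted p = 0.00853, limma), although a dimmer probe set of the gene differed by -0.26. Il10rb rose by 0.74. In the fit with the 3′ minus 5′ covariate 1 of the 51 rose and 2 fell, and 1 or 2 fell without aged array 3 or 4. Il10rb lost its call without any single array other than aged 2 and aged 5 (limma adjusted p up to 0.103). Lepr, Osmr and Il10rb did not pass with the 3′ minus 5′ covariate (limma adjusted p from 0.0596 to 0.104). Osmr at 0.19 and Tnfrsf1b at 0.48 did not pass with the median over probe sets (limma adjusted p from 0.117 to 0.825).

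The TAM receptors Axl and Mertk, which bind ligands that coat apoptotic cells, rose among 54 receptor tyrosine kinases and co-receptors, of which 3 rose and 5 fell. Axl read 6.44, 6.55, 6.47, 6.20 and 6.14 in young and 7.03, 7.75, 7.41, 7.88 and 7.57 in aged arrays. Aged array 1 was the lowest of its group. It rose by 1.17 (SE 0.17; adjusted p = 0.00109, limma), and Mertk rose by 0.80 (adjusted p = 0.0154, limma). The remaining rise, Pdgfrb, a PDGF receptor of pericytes and fibroblasts, was 2.77. Gfra1, the co-receptor that presents GDNF to Ret, read 8.55, 8.40, 8.75, 8.45 and 8.76 in young and 7.30, 7.82, 7.88, 7.80 and 7.66 in aged arrays. Aged array 1 was the lowest. It fell by 0.89 on the log2 scale (adjusted p = 0.0181, limma), and its call ended when young array 3 was dropped (limma adjusted p = 0.0555). Ret itself fell by 1.55. Tek, Ephb1 and Fgfr4 fell by 1.18, 0.98 and 1.24, with overlapping groups. Without young array 1 or 3, 3 kinase receptors fell. Tek lost its call without any single array other than aged 2 and aged 3, and Ephb1 without young 1 or 3 or aged 2 (limma adjusted p up to 0.0929). Tek, Ephb1 and Fgfr4 did not pass with the 3′ minus 5′ covariate (limma adjusted p from 0.0649 to 0.126). Gfra1 at -0.54 did not pass with the median over probe sets (limma adjusted p = 0.0821). Ret at -0.97 and Fgfr4 at -0.62 passed with that median, at a smaller change.

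Scavenger, lipoprotein and pattern recognition receptors rose in 4 of 48 genes and fell in 2. Cd14 and Tlr2, which together recognise bacterial lipids, rose. Cd14 read 5.78, 5.68, 5.20, 5.51 and 5.95 in young and 7.23, 6.73, 7.76, 6.57 and 6.50 in aged arrays. Aged array 3 was the highest, and aged array 5 the lowest. Its change was 1.33 (adjusted p = 0.00634, limma). Tlr2 read 6.55, 6.80, 7.55, 7.77 and 6.87 in young and 9.63, 9.70, 9.63, 7.82 and 8.14 in aged arrays. Aged array 4 lay just above young array 4. Its change of 1.87 (adjusted p = 0.0254, limma) lost its call when young array 1, 2 or 5, or aged array 1, 2 or 3 was dropped (limma adjusted p from 0.0558 to 0.0741). The summed level of the macrophage markers ran from 9.60 to 10.38 in young and from 10.62 to 12.17 in aged arrays, and their part in the rise of Cd14 and Tlr2 was not tested. Procr, the endothelial protein C receptor, rose by 1.66 (adjusted p = 0.00779, limma), with aged array 3 far above the rest, and by 1.32 without it. Clec11a, a secreted C-type lectin grouped here with lectin receptors, rose by 1.90, and its call ended when young array 3 was dropped (limma adjusted p = 0.0585). Vldlr, the very low density lipoprotein receptor, read 9.97, 9.72, 10.04, 9.81 and 9.73 in young and 9.10, 9.23, 9.29, 8.38 and 8.98 in aged arrays. Aged array 4 was the lowest. It fell by 0.86 on the log2 scale (adjusted p = 0.00853, limma), and the related sorting receptor Sorl1 fell by 0.76. Sorl1 lost its call without any single array other than aged 2 (limma adjusted p up to 0.118). Procr, Vldlr and Sorl1 did not pass with the 3′ minus 5′ covariate (limma adjusted p from 0.0584 to 0.147). Sorl1 at -0.99 did not pass with the median over probe sets (limma adjusted p = 0.0937).

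G protein-coupled receptors rose in 3 of 135 genes and fell in 3, close to the share of all genes. P2ry14, a receptor for UDP-glucose, read 6.47, 7.12, 7.0, 6.97 and 7.21 in young and 8.34, 8.32, 8.26, 8.62 and 7.63 in aged arrays. Aged array 5 was the lowest of its group. The change was 1.28 (SE 0.20; adjusted p = 0.00159, limma). The orphan receptor Gpr176 rose by 0.88, with 3 young arrays under the filter percentile, and the adhesion receptor Adgrl2 by 1.18. S1pr3, a receptor for sphingosine 1-phosphate, averaged 11.85 ± 0.22 in young and 11.22 ± 0.17 in aged arrays, and the lysosomal membrane protein Gpr137b averaged 7.33 ± 0.35 and 6.53 ± 0.16. They fell by 0.63 and 0.80 on the log2 scale. The call of S1pr3 ended when young array 1, 3 or 4, or aged array 1, 3, 4 or 5 was dropped (limma adjusted p from 0.0538 to 0.0845). Without aged array 4 or 5, 5 or 6 of these receptors rose, and without young array 3 or 4, 1 fell. S1pr3 and Gpr137b did not pass with the 3′ minus 5′ covariate (limma adjusted p from 0.0911 to 0.182). S1pr3 at -0.44 did not pass with the median over probe sets (limma adjusted p = 0.175).

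Genes of the guidance receptor list fell in 3 of 46 with no rise (1 without young array 5), and their median was -0.14. Of those that fell, Sema4d and Flrt2 are membrane ligands grouped here with guidance receptors. Sema4d, a membrane semaphorin, read 6.60, 6.03, 6.67, 6.57 and 6.96 in young and 5.54, 5.82, 5.70, 5.25 and 5.54 in aged arrays. Young array 2 was the lowest young array. It changed by -1.0 (SE 0.19; adjusted p = 0.00683, limma). Flrt2, a ligand of Unc5 receptors, read 8.47, 8.66, 8.76, 8.64 and 8.66 in young and 6.74, 8.28, 8.44, 7.55 and 7.19 in aged arrays. The young arrays were tight, and aged arrays 2 and 3 lay just below them. Its change of -1.0 lost its call when young array 1, 2, 3, 4 or 5, or aged array 1, 4 or 5 was dropped (limma adjusted p from 0.0663 to 0.0987). Lrrn1 fell by 1.43. The integrin Itgb5, part of a vitronectin receptor, rose by 1.26 (adjusted p = 0.0136, limma), the only one of 19 integrins to pass, where 2 rose without young array 2 or aged array 5. Hjv, a BMP co-receptor, rose by 1.14 among 17 TGF-beta and BMP receptors. Cdon, a Hedgehog co-receptor with a part in myogenesis, fell by 0.91 among 30 Notch, Wnt and Hedgehog receptors and ligands. Grina, a glutamate receptor-associated protein, rose by 0.69, and its call ended when young array 2, 3, 4 or 5, or aged array 1, 2 or 5 was dropped (limma adjusted p from 0.0533 to 0.0998). Of the 19 receptors chosen by the naming rule, 12 kept their call with the 3′ minus 5′ covariate. Hjv lost its call without young 2, 4 or 5 or aged 2, 3 or 5, and Cdon without any single array other than young 2 and aged 2 (limma adjusted p up to 0.115). Sema4d, Lrrn1, Hjv and Cdon did not pass with the 3′ minus 5′ covariate (limma adjusted p from 0.0536 to 0.201). Flrt2 at -0.76 and Cdon at -0.76 did not pass with the median over probe sets (limma adjusted p from 0.0628 to 0.0991). Sema4d at -0.57 passed with that median, at a smaller change.

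**Figure D3:**
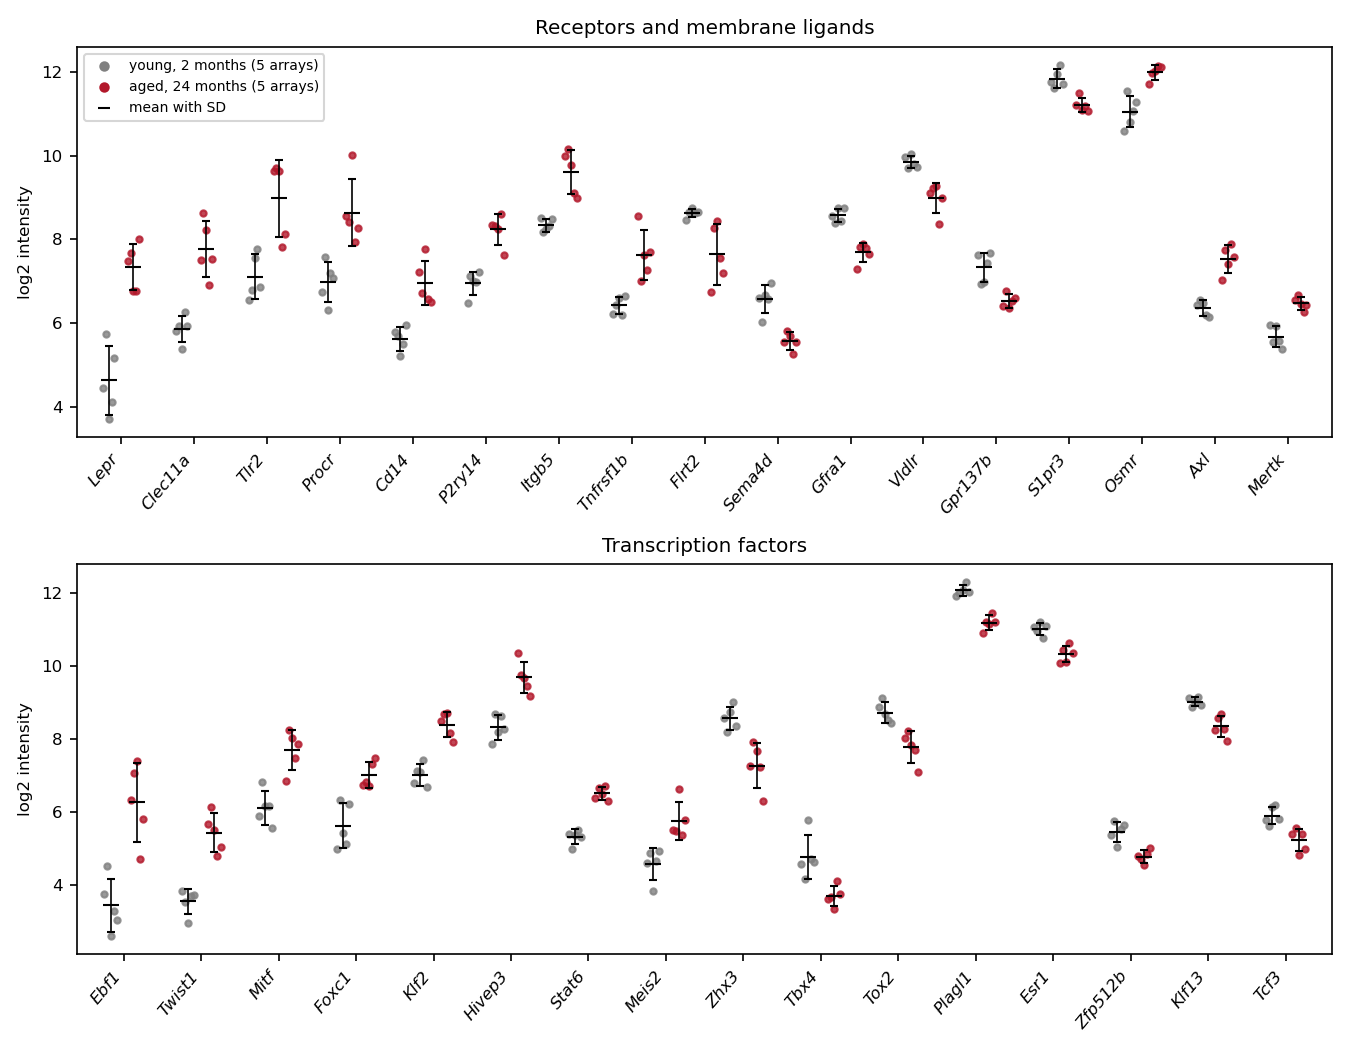
Log2 intensity on the 5 young (grey) and 5 aged (red) arrays, with mean and SD, for 17 receptors or membrane ligands (top) and 16 transcription factors (bottom). The falls are smaller than the largest rises, and the largest of them, in Zhx3, is -1.29 on the log2 scale.

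Among transcription factors the largest rise was in Ebf1. This gene, a helix-loop-helix factor of B cell and adipocyte lineages, read 3.76, 4.51, 2.60, 3.28 and 3.05 in young and 6.34, 7.07, 7.39, 4.70 and 5.80 in aged arrays. In young arrays 4 of 5 values lay under the filter percentile, and aged array 4 was the lowest aged value. The change was 2.82 (SE 0.46; adjusted p = 0.00231, limma) and is imprecise in size. Twist1, a repressor of myogenic differentiation, read 3.83, 3.53, 2.96, 3.71 and 3.72 in young arrays, all under the filter percentile, and 5.67, 6.14, 5.51, 4.79 and 5.05 in aged arrays. Against that percentile of the young arrays the rise was at least 2.92-fold, and the fitted change was 1.88 (adjusted p = 0.00181, limma). Twist1 cleared the filter only through the middle-aged and aged arrays, so its place among the factors that rose follows in part from that filter. Its relative Twist2 rose by 1.15. Mitf, a regulator of pigment cell and lysosomal genes, averaged 6.11 ± 0.46 in young and 7.69 ± 0.55 in aged arrays and rose by 1.57 (adjusted p = 0.0138, limma). Foxc1, a forkhead factor of mesenchyme and vessels, averaged 5.62 ± 0.62 and 7.01 ± 0.35 and rose by 1.39 (adjusted p = 0.0119, limma). Klf2, a shear-responsive factor of endothelial cells, read 6.78, 7.12, 7.08, 7.42 and 6.67 in young and 8.49, 8.68, 8.72, 8.17 and 7.91 in aged arrays. Young array 4 and aged array 5 were the closest. It rose by 1.38 (SE 0.21; adjusted p = 0.00116, limma). Summed endothelial markers ran from 9.19 to 9.64 in young and from 8.73 to 10.67 in aged arrays. Twist2 lost its call without young 1, 2, 3, 4 or 5 or aged 2 or 3 (limma adjusted p up to 0.0848). Twist2, Mitf and Foxc1 did not pass with the 3′ minus 5′ covariate (limma adjusted p from 0.0613 to 0.139). Ebf1 at 1.09, Mitf at 1.04 and Foxc1 at 0.87 passed with the median over probe sets, at a smaller change.

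Stat6, Stat5a and Cebpd act in cytokine signalling. Stat6, which acts downstream of interleukins 4 and 13, read 5.40, 4.99, 5.38, 5.51 and 5.32 in young and 6.39, 6.66, 6.49, 6.72 and 6.29 in aged arrays. Each group spanned about 0.5 log2 unit or less, and the gap between groups was wider. The change was 1.19 (SE 0.19; adjusted p = 0.00162, limma). Stat5a, used by growth hormone and several cytokines, averaged 6.17 ± 0.09 in young and 6.81 ± 0.22 in aged arrays and rose by 0.64 (adjusted p = 0.00853, limma). Cebpd, an acute phase factor, averaged 11.47 ± 0.15 and 12.00 ± 0.15 and rose by 0.53 (adjusted p = 0.0189, limma). Its call ended when young array 4 was dropped (limma adjusted p = 0.0531). Among 80 STAT, IRF, NF-kappaB, SMAD and related factors, 3 passed in limma (3.75%, beside 4.30% of all genes). All 3 rose (Stat6, Stat5a and Irf7 of the interferon list). Of the 80, 17 had an unadjusted p under 0.05, and the median was -0.04. Hivep3, a large zinc finger protein that binds kappaB sites, rose by 1.35 (adjusted p = 0.00159, limma), but dimmer probe sets of the gene differed by -0.08 and -0.34. Zfp462 and Nr4a2 rose by 1.07 and 1.29. Meis2, a homeodomain cofactor, rose by 1.17, and its call ended when young array 1, 3 or 4, or aged array 3 or 5 was dropped (limma adjusted p from 0.0643 to 0.106). Zfp462 lost its call without young 1, 2, 3 or 4 or aged 2 (limma adjusted p up to 0.103). Cebpd and Meis2 did not pass with the 3′ minus 5′ covariate (limma adjusted p from 0.105 to 0.176). Cebpd at 0.34, Hivep3 at 0.04, Zfp462 at 1.13, Nr4a2 at 0.61 and Meis2 at 0.53 did not pass with the median over probe sets (limma adjusted p from 0.0628 to 0.938). Stat6 at 0.67 passed with that median, at a smaller change.

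Factors that fell were spread over families. Zhx3, a zinc finger and homeobox repressor, read 8.56, 8.18, 8.73, 9.0 and 8.35 in young and 7.26, 7.92, 7.66, 7.24 and 6.29 in aged arrays. Aged array 5 was the lowest and aged array 2 the closest to young array 2. It fell by 1.29 on the log2 scale (SE 0.25; adjusted p = 0.00759, limma). Plagl1, an imprinted zinc finger gene, read 11.90, 12.00, 12.08, 12.30 and 12.03 in young and 10.89, 11.20, 11.14, 11.44 and 11.21 in aged arrays. The lowest young value was in array 1 and the highest aged value in array 4. It fell by 0.88 on the log2 scale (SE 0.13; adjusted p = 0.00101, limma). Esr1, oestrogen receptor alpha, read 11.05, 10.96, 11.20, 10.76 and 11.08 in young and 10.08, 10.42, 10.11, 10.63 and 10.36 in aged arrays. Young array 4 was the lowest of its group and aged array 4 the highest of its own. It fell by 0.69 on the log2 scale (SE 0.15; adjusted p = 0.0157, limma). Tox2, an HMG-box factor, fell by 0.96, Zfp512b by 0.68 and Klf13 by 0.68. The call of Klf13 ended when young array 1 or 4 was dropped (limma adjusted p from 0.0512 to 0.0542). Tbx4, a hindlimb patterning factor, averaged 4.77 ± 0.61 in young and 3.69 ± 0.27 in aged arrays. Its change of -1.08 is imprecise, since 4 aged arrays lay under the filter percentile. Tcf3, the E protein that pairs with Myod1, averaged 5.90 ± 0.24 and 5.23 ± 0.31, a change of -0.67 (adjusted p = 0.0385, limma), and Msc, a repressor of myogenic genes, fell by 0.98 with overlapping groups. The call of Tcf3 ended when young array 1, 3, 4 or 5, or aged array 3 or 5 was dropped (limma adjusted p from 0.0601 to 0.109). Cux1, Hbp1 and Nr2c2 fell by 0.56, 0.55 and 0.65. The call of Cux1 ended when young array 1, 3 or 4, or aged array 2, 3 or 5 was dropped (limma adjusted p from 0.0553 to 0.0914). The call of Hbp1 ended when young array 1, 3, 4 or 5, or aged array 1, 2, 3 or 5 was dropped (limma adjusted p from 0.0649 to 0.109), and that of Nr2c2 when young array 1, 2, 3, 4 or 5, or aged array 1, 2 or 5 was dropped (limma adjusted p from 0.0627 to 0.109). With the 3′ minus 5′ covariate 10 of the 21 named transcription factors kept their call, Ebf1, Twist1, Klf2, Stat6, Stat5a, Plagl1 and Esr1 among them. Zhx3, Tox2, Zfp512b, Klf13, Tcf3, Msc, Cux1 and Hbp1 did not pass with the 3′ minus 5′ covariate (limma adjusted p from 0.0715 to 0.195). Zhx3 at -0.44, Zfp512b at -0.48, Klf13 at -0.35, Tbx4 at -0.60, Cux1 at -0.52, Hbp1 at -0.36 and Nr2c2 at -0.13 did not pass with the median over probe sets (limma adjusted p from 0.0586 to 0.851). Tox2 at -0.62 passed with that median, at a smaller change.

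The promoter windows of 2 risen genes of cytokine response are printed, a choice made after the motif was found in them. A part of STAT factors in the change of these genes was not tested. Windows were the 250 bases before the start of each gene in RefSeq (GRCm38.p6), and the motif TTCNNNGAA, a palindrome that reads the same on both strands and that STAT proteins are known to bind, is in capitals. The Icam1 window is chr9:21015690-21015939 on the plus strand, with the match starting 42 bases before the start. The Tnfrsf1b window is chr4:145246871-145247120 on the minus strand, with the match 181 bases before it. Each is written 5′ to 3′ along the gene's strand.
Icam1: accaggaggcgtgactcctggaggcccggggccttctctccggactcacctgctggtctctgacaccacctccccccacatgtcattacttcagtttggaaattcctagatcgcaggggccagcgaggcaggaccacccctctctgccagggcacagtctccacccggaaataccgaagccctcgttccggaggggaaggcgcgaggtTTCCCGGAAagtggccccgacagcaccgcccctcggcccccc
Tnfrsf1b: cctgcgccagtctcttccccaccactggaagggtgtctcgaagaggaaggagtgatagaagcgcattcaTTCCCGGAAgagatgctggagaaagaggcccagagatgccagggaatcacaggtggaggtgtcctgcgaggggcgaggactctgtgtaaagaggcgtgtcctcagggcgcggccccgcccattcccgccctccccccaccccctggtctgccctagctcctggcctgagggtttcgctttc
Both matches have the same letters, TTCCCGGAA. Of the 120 named genes that passed, 102 had a window, and 4 of those held the motif (Esr1, Icam1, Pde1c and Tnfrsf1b, 3.92%). Esr1 and Pde1c fell, and their windows are not printed. It was found for 769 of the 10852 tested genes that had a window (7.09%), for 6.8% of those that rose and for 5.76% of those that fell (the shares describe these windows and were not tested). Of all windows in the table, 7.02% held it.

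Among genes of cell function, enzymes of aldehyde, retinoid and xenobiotic metabolism rose in 11 of 113 (9.73%), with no fall and a median of 0.09. Cyp26a1, which degrades retinoic acid, read 7.48, 6.52, 7.17, 7.76 and 8.40 in young and 9.66, 9.10, 9.13, 10.44 and 10.36 in aged arrays. Young array 5 was the highest of its group, and aged arrays 4 and 5 the highest of theirs. The change was 2.27 (4.84-fold, SE 0.33; adjusted p = 0.00101, limma). Adh1, which oxidises retinol, and Crabp1, which binds retinoic acid in the cytoplasm, rose by 1.31 and 0.89. Sult1e1, oestrogen sulfotransferase, read 3.22, 3.16, 3.23, 3.43 and 3.33 in young arrays, all under the filter percentile, and 4.93, 5.64, 6.38, 4.35 and 4.60 in aged arrays. Against that percentile its rise was at least 2.45-fold. Sult1e1 cleared the filter only through the aged arrays, so it could enter the count of 11 only as a rise. Hsd17b11, a short-chain dehydrogenase of lipid droplets, averaged 8.12 ± 0.10 in young and 8.98 ± 0.12 in aged arrays and rose by 0.86 (adjusted p = 0.000695, limma). The aldo-keto reductase Akr1b8 rose by 1.18, and the cytochromes Cyp2j9, Cyp4v3 and Cyp27a1 by 1.42, 1.31 and 0.86. Xanthine dehydrogenase (Xdh) rose by 1.5 with overlapping groups. Only 6 of the 113 rose with the 3′ minus 5′ covariate. Crabp1 lost its call without any single array other than aged 4, and Xdh without young 1, 2, 3, 4 or 5 or aged 2 (limma adjusted p up to 0.0890). Adh1, Crabp1, Cyp2j9 and Xdh did not pass with the 3′ minus 5′ covariate (limma adjusted p from 0.0597 to 0.116). Hsd17b11 at 0.48 did not pass with the median over probe sets (limma adjusted p = 0.109).

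Ion channels rose in 5 of 125 genes and fell in 2 (5.60%, beside 4.30% of all genes). Nalcn, the sodium leak channel, read 3.67, 4.37, 4.12, 3.99 and 4.82 in young and 6.58, 7.22, 7.28, 5.99 and 5.85 in aged arrays. Aged arrays 4 and 5 were the lowest of their group. It rose by 2.39 (SE 0.39; adjusted p = 0.00240, limma), and the potassium channels Kcnk1 and Kcnn4 rose by 1.45 and 1.55. Ryr3, a calcium release channel, read 9.68, 9.85, 9.47, 9.07 and 9.83 in young and 8.27, 8.09, 8.05, 8.29 and 8.64 in aged arrays. Young array 4 was the lowest of its group and aged array 5 the highest of its own. It fell by 1.31 on the log2 scale (SE 0.19; adjusted p = 0.00103, limma). Solute carriers fell in 5 of 240 genes and rose in 1 (2.50%). Slc11a2, the transporter of ferrous iron, read 8.16, 7.63, 8.43, 8.41 and 7.97 in young and 7.17, 7.30, 6.78, 7.07 and 6.82 in aged arrays. Young array 2 came nearest to the aged arrays. It fell by 1.09 on the log2 scale (SE 0.20; adjusted p = 0.00551, limma). Slc9a7, a sodium proton exchanger of the Golgi, fell by 1.15, the folate carrier Slc19a1 by 0.75, Slc16a10 by 0.83 and Slc49a4 by 0.74, whereas the organic anion transporter Slco4a1 rose by 1.65. Without young array 1, 3 or 4, 2, 2 or 3 solute carriers fell, while 2 rose without young array 2 or 5 and 4 without aged array 5. When young array 1, 3 or 4, or aged array 1, 2 or 5 was dropped, 3 channels rose. Slc19a1 lost its call without young 1 or 3, Slc16a10 without young 1, 3 or 4 or aged 3, and Slc49a4 without any single array other than aged 3 (limma adjusted p up to 0.107). Kcnk1, Slc11a2, Slc19a1, Slc16a10 and Slc49a4 did not pass with the 3′ minus 5′ covariate (limma adjusted p from 0.0617 to 0.171). Ryr3 at -0.23, Slc11a2 at -0.25, Slc16a10 at -0.58 and Slc49a4 at -0.37 did not pass with the median over probe sets (limma adjusted p from 0.0977 to 0.701). Nalcn at 1.43, Kcnk1 at 0.95 and Kcnn4 at 0.77 passed with that median, at a smaller change.

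Cell junction genes rose in 4 of 79 and fell in 1 (6.33%, beside 4.30% of all genes), with 2 falls when aged array 4 was dropped. Gja1, connexin 43 of gap junctions, read 10.10, 11.28, 9.91, 9.83 and 11.17 in young and 12.41, 12.62, 12.74, 11.60 and 12.40 in aged arrays. Young arrays 2 and 5 came near aged array 4. It rose by 1.89 (SE 0.31; adjusted p = 0.00202, limma), with 2.57 within array set 1 and 1.02 within set 2. Icam1, an adhesion molecule for leukocytes whose promoter is shown above, read 9.13, 9.09, 9.48, 9.73 and 8.97 in young and 10.98, 10.77, 10.44, 10.34 and 10.24 in aged arrays. Young array 4 was the highest of its group. It rose by 1.27 (SE 0.18; adjusted p = 0.000968, limma). Pcdh7 fell by 1.13 and Pcdh19 rose by 0.80. Among 65 feedback regulators, Nfkbie, an inhibitor of NF-kappaB, read 8.69, 9.0, 8.58, 8.80 and 9.44 in young and 10.12, 10.23, 10.13, 10.52 and 10.52 in aged arrays. The aged arrays lay within 0.5 log2 unit of each other. It rose by 1.40 (adjusted p = 0.000379, limma), the phosphatase Dusp26 by 1.15, and Socs3, an inhibitor of cytokine receptors that STAT factors induce, by 0.95 with overlapping groups. Gadd45g, a stress and growth arrest gene, averaged 9.87 ± 0.15 in young and 11.16 ± 0.34 in aged arrays and rose by 1.30 (adjusted p = 0.00159, limma). It was the only call among 26 cyclins, CDKs and their inhibitors, whose median change was -0.28. That median was -0.51 within array set 1, with 8 falls and 0 rises, and 0.02 within set 2. The inflammatory caspase Casp4 and the mitophagy receptor Bnip3 rose by 1.17 and 0.99, and Casp2 fell by 1.0. Pcdh19 lost its call without young 2, 4 or 5 or aged 1, 2, 3 or 4, Socs3 without young 1 or 3, and Casp2 without young 1, 3 or 4 or aged 1, 2, 3 or 5 (limma adjusted p up to 0.0859). Pcdh19, Socs3, Casp4, Bnip3 and Casp2 did not pass with the 3′ minus 5′ covariate (limma adjusted p from 0.0503 to 0.142). Pcdh7 at -0.51 did not pass with the median over probe sets (limma adjusted p = 0.0530).

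Genes of the actin cytoskeleton rose in 3 of 55 (Cnn2, Mylk and Cdc42ep3) and fell in 1 (Fhl1), so that 7.27% passed. Tubulins and microtubule genes rose in 1 of 41 (2.44%) and intermediate filament genes in 1 of 29 (3.45%), beside 4.30% of all genes that passed. Dpysl3, a microtubule protein of growing neurites, read 5.91, 4.82, 5.21, 6.24 and 5.98 in young and 8.0, 8.38, 8.55, 7.59 and 7.66 in aged arrays. Young array 2 was the lowest, and aged arrays 4 and 5 were the lowest aged arrays. It rose by 2.40 (SE 0.31; adjusted p = 0.000457, limma). The actin-binding calponin Cnn2 rose by 1.65, myosin light chain kinase (Mylk) by 1.56, and the nuclear lamin Lmna by 1.08, with 1 dim Lmna probe set at -0.18. Gpm6b, a proteolipid of neural membranes, rose by 1.23, and its call ended when young array 3 was dropped (limma adjusted p = 0.0534). Hspb8, a small heat shock protein, averaged 8.13 ± 0.25 in young and 9.50 ± 0.41 in aged arrays and rose by 1.37 (adjusted p = 0.00103, limma). It was the only call among 87 heat shock proteins and co-chaperones (1.15%), of which 2 rose without aged array 1, 3 or 5. The rise of myofibre transcripts stands beside these genes, and its part was not tested. Cdc42ep3 lost its call without any single array other than young 5 and aged 1, and Fhl1 without young 1 or 4 (limma adjusted p up to 0.115). Mylk, Cdc42ep3, Fhl1 and Gpm6b did not pass with the 3′ minus 5′ covariate (limma adjusted p from 0.0947 to 0.296). Lmna at 0.67 and Hspb8 at 0.57 passed with the median over probe sets, at a smaller change.

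Of 24 genes of cholesterol synthesis and uptake, 2 fell and none rose, and the median was -0.26. Nsdhl, an enzyme of late cholesterol synthesis, read 7.09, 7.23, 7.47, 7.16 and 7.81 in young and 5.78, 6.56, 6.46, 6.10 and 6.58 in aged arrays. Young array 1 and aged array 5 were the closest. It fell by 1.06 on the log2 scale (SE 0.19; adjusted p = 0.00451, limma). Fdps, which makes farnesyl diphosphate, fell by 0.68, and its call ended when young array 1, 3 or 5, or aged array 1, 3, 4 or 5 was dropped (limma adjusted p from 0.0531 to 0.126). Agpat4 of phospholipid synthesis rose by 0.84, and its call ended when young array 3 was dropped (limma adjusted p = 0.0536). Cdo1, which oxidises cysteine, rose by 0.82, and its call ended when young array 1, 3 or 4, or aged array 4 was dropped (limma adjusted p from 0.0505 to 0.0646). Proline dehydrogenase (Prodh) rose by 0.90 with overlapping groups. Prodh lost its call without young 2, 3, 4 or 5 or aged 1, 2 or 4 (limma adjusted p up to 0.113). Fdps and Cdo1 did not pass with the 3′ minus 5′ covariate (limma adjusted p from 0.122 to 0.146).

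Nuclear and protein turnover genes changed little as lists. Chromatin writers, erasers and remodellers fell in 3 of 117, with no rise and a median of -0.19. Kdm7a, a histone demethylase, averaged 8.53 ± 0.11 in young and 7.60 ± 0.41 in aged arrays and fell by 0.92 (adjusted p = 0.0111, limma). Hdac11, a histone deacetylase, fell by 0.98 and Kdm4a by 0.75. The call of Hdac11 ended when young array 1, 3 or 4, or aged array 4 was dropped (limma adjusted p from 0.0555 to 0.0730), in which case 1 chromatin gene fell. Ubiquitin ligase and deubiquitinase genes fell in 4 of 286 and rose in 2 (1 without young array 1 or 3). Trim59, a ligase of the TRIM family, read 6.45, 6.93, 7.08, 7.15 and 7.69 in young and 5.50, 5.35, 6.15, 6.19 and 5.49 in aged arrays. Young array 5 was the highest. It fell by 1.33 on the log2 scale (SE 0.29; adjusted p = 0.0162, limma). Rnf185 of protein quality control fell by 0.55, and Herc4 by 0.91, although the median over Herc4's probe sets differed by 0.15. In lysosomes, alpha-galactosidase (Gla) rose by 1.36, fucosidase (Fuca1) by 0.81, and Plbd1 fell by 1.26. The splicing factor Prpf6 rose by 0.91. Srsf6 fell by 0.50, a call that ended when young array 1, 2, 3, 4 or 5, or aged array 1, 2, 3 or 5 was dropped (limma adjusted p from 0.0662 to 0.109). Linker histone H1f2 rose by 0.99, a call that ended when young array 1, 2 or 3, or aged array 1, 3, 4 or 5 was dropped (limma adjusted p from 0.0515 to 0.0727). Imprinted genes divided, with Plagl1 and the growth factor receptor adaptor Grb10 lower (Grb10 -0.79; adjusted p = 0.0150, limma) and Ndn and Igf2 higher by 1.06 and 0.88. With any single array left out, 0 or 1 of the 23 imprinted genes rose. Kdm4a lost its call without any single array other than young 2 and young 5, Fuca1 without young 3 or 4 or aged 2 or 3, and Ndn without young 3 or 4 or aged 3 or 5 (limma adjusted p up to 0.133). Kdm7a, Hdac11, Kdm4a, Rnf185, Gla, Fuca1, Srsf6, H1f2 and Ndn did not pass with the 3′ minus 5′ covariate (limma adjusted p from 0.0567 to 0.320). Fuca1 at 0.45, Srsf6 at -0.46, H1f2 at 0.98 and Grb10 at -0.19 did not pass with the median over probe sets (limma adjusted p from 0.0628 to 0.697). Trim59 at -0.84 passed with that median, at a smaller change.

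Other core functions had no gene past the limma test. These were fatty acid oxidation (0 of 40, 8 at an unadjusted p under 0.05), endoplasmic reticulum folding (0 of 49, 8), cytosolic ribosomal proteins (0 of 49, 7), ribosome biogenesis (0 of 81, 6), translation factors (0 of 59, 5), tRNA synthetases (0 of 19, 0) and mitochondrial dynamics and import (0 of 40, 5). Their medians ran from -0.15 to 0.00, beside -0.05 for all genes. Of all 13579 genes, 2252 had an unadjusted p under 0.05. With single arrays left out, fatty acid oxidation gave up to 2 rises or 2 falls, and the folding, ribosomal protein, ribosome biogenesis and mitochondrial lists up to 1.

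**Figure D4:**
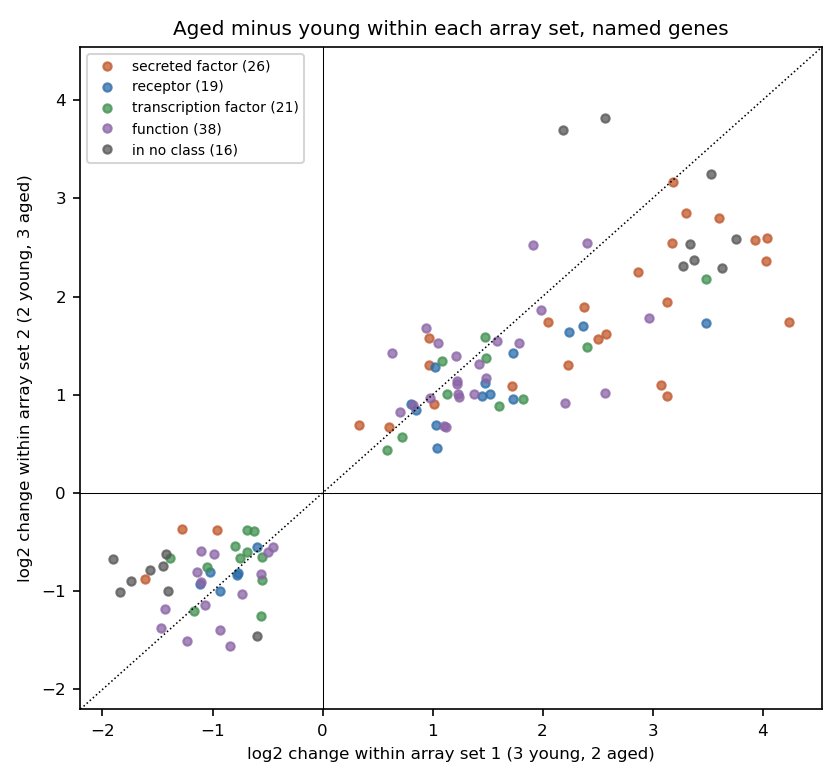
Log2 change of aged minus young within array set 1 (3 young and 2 aged arrays) against that within set 2 (2 young and 3 aged arrays) for the 120 named genes that passed, coloured by class (a gene of 2 classes is shown under 1), with the line of equal change dotted. Because each gene was chosen for groups that do not overlap, equal signs follow from the choice. The sets were drawn from these same values, so differences in size between them are description only.

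Within the array sets, changes of the named genes differed in size. The sets were drawn from these same values and hold few arrays of each age, so these sizes are description only. Of 78 named genes that rose, 60 had the larger rise in set 1, where changes ran from 0.33 to 4.24, beside 0.44 to 3.82 in set 2. Chrdl1, Bmp5, Loxl4 and Gja1 had much the larger change in set 1, with Loxl4 at 3.08 and 1.10. Tnfaip2 and Car3 went the other way, with 2.57 and 3.82, and 2.19 and 3.70. Of 42 that fell, 26 had the larger fall in set 1.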

How the data were processed

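RNA from sorted cells was measured on 14 Affymetrix mouse arrays labelled with a 3′IVT kit, per the labels' protocols. The deposited values are linear intensities that the authors made with RMA, per the submitters' processing notes; RMA corrects background, normalizes arrays together and gives 1 value per probe set. Array medians lay between 19.0 and 21.2, and arrays give no read depth, so their number limits precision. Log2 of the deposited intensity was taken with no further normalization. Probe sets were named from the platform annotation, and 34741 of 34945 with 1 gene matched RefSeq (GRCm38.p6). Controls (64), probe sets of several genes (932) and of none (9160) were left out. A probe set was kept when above the 40th percentile of its array on at least 4 of 14 arrays, and the brightest kept probe set stood for its gene (13579 genes, 5992 with more than 1).

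The contrast of aged minus young came from limma 3.58.1 in R 4.3.3 (lmFit and eBayes, two-sided, all 14 arrays, age group the only factor), Benjamini-Hochberg adjusted over all genes. Genes and lists were chosen with earlier results of these data known. Named were, among genes that passed with no overlap of the 5 aged and 5 young values and outside the lists already described, the 8 largest rises and 8 largest falls of each class and of genes in no class, and the 2 smallest p of each list, with 7 reference genes whatever their result. Array sets were defined by the sign of the leading component of age-centred values and are not groups of the study. Replicate numbers did not pair arrays (same-number correlations 0.26, -0.31, -0.12, -0.22 and 0.21). Summed marker levels are log2 of summed linear intensities. Alternatives covered the filter, the probe sets, the normalization, the variance model, a replicate block, the array set, the 3′ minus 5′ signal and each array left out.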

Additional observations from a re-analysis of the deposited data

Results flagged for a closer look

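Among 252 groups of 5 arrays, 5 held an array that stood apart from the other 4 by Dixon's ratio (critical value 0.71), and chance alone gives such an array in about 1 group of 20. Procr, the protein C receptor, read 10.02 on aged array 3, beside 7.95 to 8.55 on the other aged arrays. Pxdn, the basement membrane peroxidase, read 9.18 on the same aged array 3, beside 8.66 to 8.79. Apod, a lipocalin, read 9.92 on young array 2, beside 9.38 to 9.49. Cebpd, an acute phase factor, read 11.20 on young array 4, beside 11.51 to 11.57. Kdm7a, a histone demethylase, read 6.88 on aged array 5, beside 7.64 to 7.83. Without the array that stood apart, Procr, Pxdn, Apod and Kdm7a still passed in limma, and Cebpd did not (adjusted p = 0.0531).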

How the results depend on the processing

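The choice of probe set turned the sign of some of the 584 calls, and no other alternative turned any. With the median over probe sets 577 of 584 kept it, with Enho at -0.22 and Herc4 at 0.15, and without probe sets marked _x or _s 573 of 574. Itgb1, never past the threshold, turned to 0.07 with the 3′ minus 5′ covariate and to 0.14 without young array 1, with -0.26 to 0.14 over the arrays left out in turn. With the array set as a term 976 genes passed, 49 of them receptors and 61 transcription factors. This gain follows from sets that were drawn from the same values. Within array set 2 (2 young and 3 aged arrays), 21 genes passed, 3 of them secreted, with 0 receptors and 0 transcription factors. With 1 array left out, calls ran from 388 to 581 for all genes, 72 to 102 for secreted factors, 21 to 36 for receptors and 19 to 37 for transcription factors. The share of calls that rose was 70.9%, and it was 59.7% with the covariate, 59.0% with the array set in the model, 56.3% in set 1 alone and 95.2% in set 2 alone.

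With the 3′ minus 5′ covariate, which itself differed between the ages, 462 genes passed, and 285 of the 584 calls held. With the replicate number as a block 489 genes passed, 87 of them secreted factors, 26 receptors and 24 transcription factors, and 452 of the 584 calls held. Of the 120 named genes that passed, 91 held with any 1 array left out, 60 under every other alternative that measured them, short of a single array set, and 58 under both. Of those 60, 4 were not measured under 1 or more of the alternatives. By class, 18 of 26 secreted factors, 6 of 19 receptors, 5 of 21 transcription factors and 21 of 42 function genes, some of which share another class, held under both. Dim signal limits Twist1, Sult1e1, Ebf1, Gpr176 and Tbx4, whose values in 1 group lay mostly under the filter percentile. Median shifts of all genes stayed within 0.04 under every alternative.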

Other observations

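Genes in none of the 4 classes gave 248 rises and 107 falls among 9887. The largest rises outside the lists already described were in genes of varied function. Tnfaip2, a gene that tumour necrosis factor induces, read 6.80, 6.12, 7.30, 6.88 and 6.24 in young and 10.00, 9.14, 10.14, 9.75 and 10.11 in aged arrays. No young value reached 8, and no aged value lay below 9. It rose 8.93-fold (log2 change 3.16, SE 0.25; adjusted p = 1.25e-05, limma), while 2 dimmer probe sets differed by 1.31 and -0.11. Inmt, which methylates indole amines, read 6.34, 5.43, 6.13, 5.25 and 6.15 in young and 8.67, 10.19, 10.57, 7.53 and 9.02 in aged arrays. Aged array 4 was the lowest of its group. Its change was 3.34 (adjusted p = 0.00101, limma). Ptgis, prostacyclin synthase, averaged 6.79 ± 0.36 in young and 9.71 ± 0.61 in aged arrays and rose by 2.92 (adjusted p = 0.000513, limma). Car3, a carbonic anhydrase abundant in slow fibres and fat, rose by 2.92. Ccdc3, a secreted protein of fat and vessels, rose by 3.17, Aebp1, a collagen-binding carboxypeptidase-like protein, by 2.71, Ecrg4 by 2.79 and the calcium homeostasis modulator Calhm5 by 2.97, with 2 young Calhm5 arrays under the filter percentile. Tenocyte and fibro-adipogenic markers rose in the same arrays, and their part was not tested. Car3 did not pass with the 3′ minus 5′ covariate (limma adjusted p = 0.0533). Tnfaip2 at 1.31 and Car3 at 1.73 passed with the median over probe sets, at a smaller change.

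The 8 largest falls in no class included Smc4, Igdcc4 and Pde1c. Smc4, a condensin subunit, read 8.65, 9.19, 8.94, 9.14 and 8.91 in young and 7.15, 7.88, 8.24, 8.53 and 7.37 in aged arrays. Aged array 4 was the closest to the young arrays. It fell by 1.13 on the log2 scale (SE 0.25; adjusted p = 0.0152, limma). Cenpp, a centromere protein, averaged 5.22 ± 0.35 in young and 4.08 ± 0.31 in aged arrays. It fell by 1.13 on the log2 scale. Igdcc4, an immunoglobulin superfamily membrane protein, read 10.46, 9.86, 10.25, 10.35 and 10.41 in young and 8.51, 8.72, 9.58, 8.93 and 9.21 in aged arrays. Aged array 3 was the highest of its group. It fell by 1.28 on the log2 scale (adjusted p = 0.00121, limma). Pde1c, a calmodulin-dependent phosphodiesterase, fell by 1.32, and its call ended when young array 1, 2, 3 or 5, or aged array 1 or 2 was dropped (limma adjusted p from 0.0517 to 0.0675). Itm2a, a membrane protein of the muscle lineage, fell by 1.19, and its call ended when young array 1, 2, 3, 4 or 5, or aged array 2 or 4 was dropped (limma adjusted p from 0.0547 to 0.0991). Ndfip2, an adaptor of Nedd4 ligases, fell by 1.09, and its call ended when young array 1 was dropped (limma adjusted p = 0.0542). Tec, a cytoplasmic tyrosine kinase, fell by 1.09, and its call ended when young array 3 or 4 was dropped (limma adjusted p from 0.0575 to 0.0607). Ndfip2 and Tec did not pass with the 3′ minus 5′ covariate (limma adjusted p from 0.0598 to 0.151). Pde1c at -0.61 and Ndfip2 at -0.81 did not pass with the median over probe sets (limma adjusted p from 0.0628 to 0.312).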
